A study of Mus musculus with 8 samples.

Results

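The dopamine receptor family of the mouse has 5 genes, Drd1, Drd2, Drd3, Drd4 and Drd5, and their RNA was followed in the striatum of 8 mice. Members were the probe sets whose platform annotation gives exactly 1 of these symbols, which found 5 probe sets, 1 for each gene, among the 21789 probe sets with 1 symbol and the 35557 of the whole table. All 5 passed the filter on dim probe sets, a mean of at least 5.25 on the log2 scale over the 8 arrays. The animals were male C57BL/6 mice, an inbred laboratory strain, 6 weeks old, with 2 mice and 2 arrays in each of 4 groups. Mice of the acupoint group were given injections of MPTP-HCl, 20 mg/kg and 24 h apart, over 4 weeks, and were needled by hand in 14 sessions 48 h apart, to a depth of 3 mm at the point GB34 and 1 mm at LR3. The non-acupoint group had the same MPTP course and as many sessions, with the needle 3 mm deep in both hips. The MPTP group received the toxin without needling, and the control group received daily saline for 4 weeks. MPTP is a neurotoxin that damages the dopamine neurons of the midbrain, whose axons end in the striatum, and is used to model parkinsonism. It was injected systemically, and the values analysed here hold no measure of how many dopamine axons were lost in each animal.

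Dopamine receptors are G protein-coupled receptors of 2 classes. The D1-like receptors, encoded by Drd1 and Drd5, couple to stimulatory G proteins and raise cyclic AMP, while the D2-like receptors, encoded by Drd2, Drd3 and Drd4, couple to inhibitory G proteins and lower it. In the striatum Drd1 marks the projection neurons of the direct pathway and Drd2 those of the indirect pathway, and Drd2 is also made by cholinergic interneurons. Drd3 is best known from the ventral striatum and the islands of Calleja, Drd5 from cholinergic interneurons and hippocampus, and Drd4 from cortex.

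The promoter windows of Drd1, Drd2 and Drd3 are shown because these 3 genes had the widest spans over the arrays. The sequences are RefSeq's on GRCm38.p6, 300 bases each from 250 before to 50 after an annotated start, written 5′ to 3′ on the strand of the gene, with matches to the GC box GGGCGG on either strand in capitals. The table held 6 such windows for the family, 2 of them for Drd1, of which the upstream one is given. The transcript start of the Drd1 window is the first base of the gene in the RefSeq table and that of Drd2 lies 43 bases inside it, but that of Drd3 lies 8206 bases inside the gene, so its window describes an internal start and not the beginning of the gene.
Drd1, chr13:54055609-54055908, minus strand: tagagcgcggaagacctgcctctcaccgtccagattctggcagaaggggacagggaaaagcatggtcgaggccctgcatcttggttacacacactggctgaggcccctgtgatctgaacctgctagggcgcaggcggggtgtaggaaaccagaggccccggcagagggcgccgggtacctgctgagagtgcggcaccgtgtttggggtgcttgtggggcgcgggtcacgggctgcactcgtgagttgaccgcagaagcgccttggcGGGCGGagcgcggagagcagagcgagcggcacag
Drd2, chr9:49340153-49340452, plus strand: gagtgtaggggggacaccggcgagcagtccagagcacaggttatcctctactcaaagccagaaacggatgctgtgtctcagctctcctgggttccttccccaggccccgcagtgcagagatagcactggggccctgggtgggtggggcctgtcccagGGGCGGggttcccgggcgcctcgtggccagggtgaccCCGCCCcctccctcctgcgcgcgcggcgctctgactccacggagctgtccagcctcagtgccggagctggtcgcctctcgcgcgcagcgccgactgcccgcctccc
Drd3, chr16:43761971-43762270, plus strand: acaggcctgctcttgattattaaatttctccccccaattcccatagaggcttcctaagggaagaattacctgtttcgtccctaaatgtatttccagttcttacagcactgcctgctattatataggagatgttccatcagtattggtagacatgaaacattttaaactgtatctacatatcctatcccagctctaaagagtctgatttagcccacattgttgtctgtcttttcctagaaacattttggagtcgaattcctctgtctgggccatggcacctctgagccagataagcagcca

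The printed windows of Drd1 and Drd2 had 65.7% and 70.3% G and C and held 23 CpG dinucleotides each, against medians of 52.7% and 7 over the 32851 windows of the table. The other Drd1 window, whose start lies 878 bases inside the gene, had 59.3% G and C, 6 CpG dinucleotides and 1 GC box match. The internal Drd3 window had 42.0% G and C and 2 CpG dinucleotides. Windows of Drd4 and Drd5 had 58.0% and 70.3% G and C, with 15 and 38 CpG dinucleotides. A GC box match was present in the windows of Drd1 (1 match), Drd2 (2), Drd4 (3, of which 2 overlap each other) and Drd5 (2), and in 35.7% of all windows. The TATA box letters TATAAA and the cAMP response element TGACGTCA, searched on both strands, were in no window of the family, and in 13.6% and 1.79% of all windows. A match is a description of the letters and was not tied to any value below.

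Each probe set had 1 value per array, made by RMA on a log2 scale, so that a difference of 1 is a doubling in signal. Array medians lay between 6.02 and 6.12. Brightness differs between probe sets for reasons of their design, so the levels of different receptors are not set against each other. The probe sets of Drd1, Drd2, Drd3, Drd4 and Drd5 stood at percentiles 93.0, 92.3, 58.9, 42.8 and 51.2 of mean brightness among probe sets with 1 symbol, and the deposited values carry no call of detection above background.

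Drd1 and Drd2 were low in 1 of the 2 MPTP mice and close to or above the control values in the other. Over the 8 arrays Drd1 spanned 2.74 on the log2 scale, Drd2 2.39 and Drd3 1.63, while Drd4 spanned 0.66 and Drd5 0.27. MPTP mouse 1 gave the lowest value of Drd1, Drd2 and Drd3, and MPTP mouse 2 gave the highest of each. Non-acupoint mouse 2 was the second lowest for all 3. Because the tissue was measured in bulk, fewer cells of a type and less RNA per cell cannot be told apart in any of these values.

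**Figure D1:**
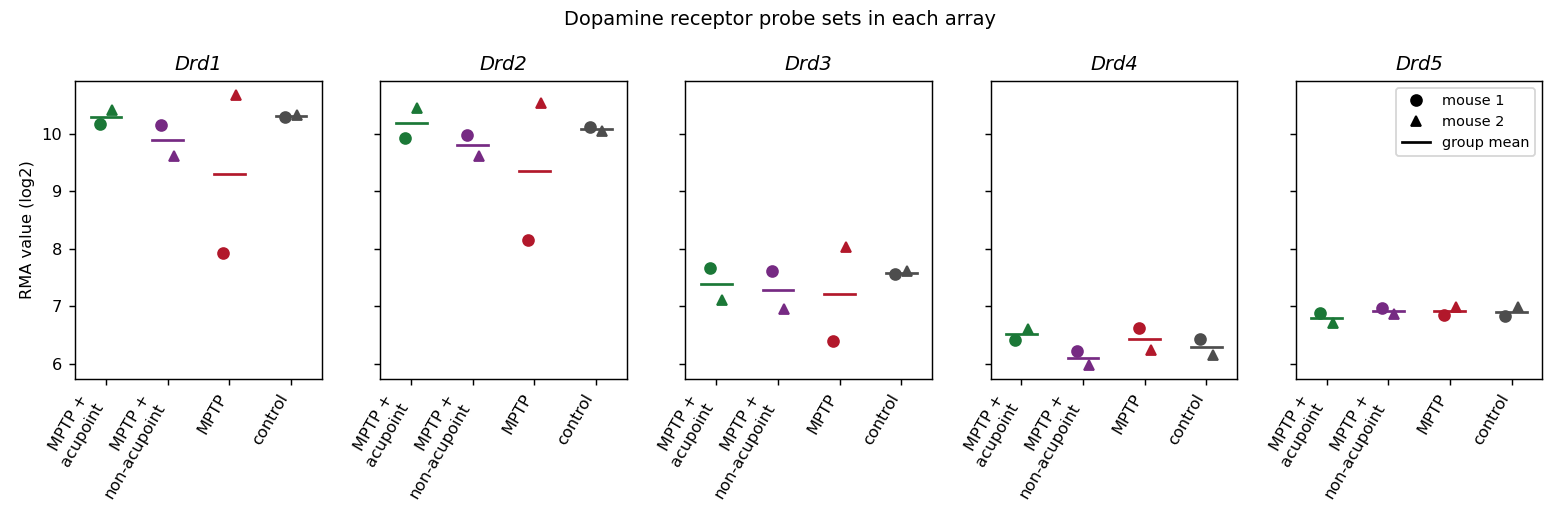
RMA values (log2, vertical axis) of the 5 dopamine receptor probe sets in the 8 arrays, by group on the horizontal axis; circles are mouse 1, triangles mouse 2, and bars the mean of the 2 mice. MPTP mouse 1 is the lowest array for Drd1 (7.93), Drd2 (8.15) and Drd3 (6.40), and Drd5 spans 0.27 over all arrays.

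The arrays were not alike in their tissue markers. Shared markers of striatal projection neurons (8 of the 9 listed genes measured) averaged -1.88 in MPTP mouse 1, on the log2 scale relative to the mean of the controls, with all 8 below it, and 0.29 in MPTP mouse 2, with all 8 above it. They averaged -0.61 in non-acupoint mouse 2 and between -0.21 and 0.25 in the remaining needled mice. Thalamus markers, of a region next to the striatum, averaged 2.62 in MPTP mouse 1 and 1.60 in non-acupoint mouse 2, with 10 of 10 above the controls in each. They averaged 0.69 in acupoint mouse 1, also with 10 of 10 above, 0.11 in non-acupoint mouse 1, -0.14 in acupoint mouse 2 and -0.63 in MPTP mouse 2. Choroid plexus markers were 2.40 to 3.10 above the controls in MPTP mouse 1, acupoint mouse 1 and both non-acupoint mice. Penk, the enkephalin precursor of indirect-pathway neurons, had its lowest value, 11.32, in MPTP mouse 1 and its highest, 13.35, in acupoint mouse 2, so striatal neuron RNA was present in every array. The part of the choroid plexus, ependymal and cortical marker differences in the receptor values was not tested. Fits with the thalamus and projection neuron marker means as covariates are given with the receptors. No array date or batch is given in the labels.

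The first comparison asked whether MPTP changed the receptors. No receptor passed the test, and the 2 MPTP mice went opposite ways for Drd1, Drd2 and Drd3. Limma, a linear model fitted over all genes, called 0 of the 5 receptors at an adjusted p under 0.05 and 0% of the 16342 probe sets; 652 of these (3.99%), but 0 receptors, had an unadjusted p under 0.05. None of the 5 had groups that did not overlap, where 29.3% of all probe sets had such groups.

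Drd1, the D1 receptor of direct-pathway neurons, had log2 values of 7.93 and 10.68 in the MPTP mice, against 10.29 and 10.32 in the controls. The MPTP values thus lay on both sides of the controls and 2.74 apart, while the controls were 0.03 apart. Its means were 9.30 ± 1.94 in MPTP mice and 10.31 ± 0.02 in controls (SD, n = 2 each), a difference of -1.01 (SE 0.76, 95% interval -2.80 to 0.79, limma adjusted p = 0.93). This corresponds to 49.8% of the control level. Without MPTP mouse 1 the difference was 0.37, and without MPTP mouse 2 it was -2.38. Each of these fits holds a single MPTP array, assumed to vary like the others, so only the size of the difference is given.

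Drd2, the D2 receptor of indirect-pathway neurons, had 8.15 and 10.54 in the MPTP mice, against 10.11 and 10.04 in the controls. Again the control values fell between those of the MPTP mice. The means were 9.34 ± 1.69 in MPTP mice and 10.07 ± 0.05 in controls (SD, n = 2 each), a difference of -0.73 (SE 0.67, 95% interval -2.32 to 0.85, limma adjusted p = 0.93). It was 0.46 without MPTP mouse 1 and -1.93 without MPTP mouse 2. The distance between the MPTP mice was larger than that of 99.7% of all tested probe sets for Drd1, 99.5% for Drd2 and 98.2% for Drd3.

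Drd3, the D3 receptor, had 6.40 and 8.03 in the MPTP mice, against 7.56 and 7.62 in the controls. It kept the order of the arrays seen in Drd1 and Drd2 within this group, with a smaller distance of 1.63. The difference of the means was -0.37 (SE 0.50, 95% interval -1.57 to 0.82, limma adjusted p = 0.94), and it was 0.44 without MPTP mouse 1 and -1.19 without MPTP mouse 2.

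Drd4, the D4 receptor, had 6.64 and 6.24 in the MPTP mice, against 6.44 and 6.16 in the controls. Here MPTP mouse 1 was the higher of the pair, unlike in the other D2-like genes, and the groups overlapped. The difference was 0.14 (SE 0.18, limma adjusted p = 0.94). Drd5, the D5 receptor, had 6.86 and 6.99 in the MPTP mice, against 6.83 and 6.99 in the controls. Its difference of 0.02 (SE 0.11, limma adjusted p = 0.99) had a 95% interval from -0.26 to 0.29, the narrowest of the family. For the Drd5 probe set in this comparison, a change of signal beyond 0.29 on the log2 scale lay outside the interval. Without a call of detection, this bounds the signal and not the RNA of Drd5.

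**Figure D2:**
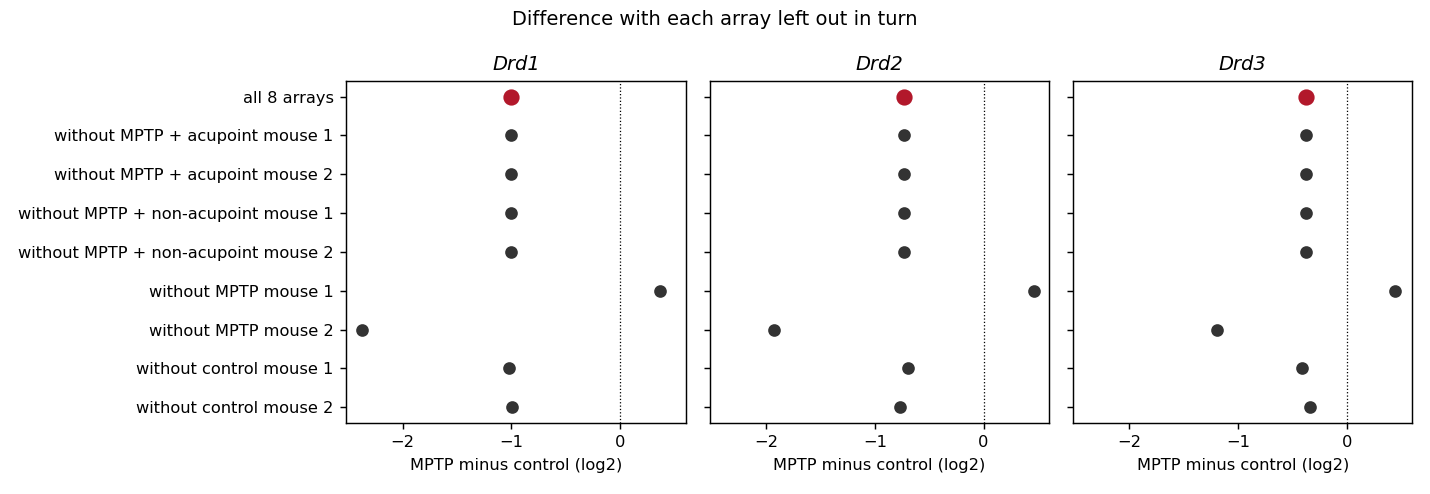
MPTP minus control difference (log2, horizontal axis) of Drd1, Drd2 and Drd3 with all 8 arrays (large red point) and with each array left out in turn (black points, rows). Without MPTP mouse 1 the differences are 0.37, 0.46 and 0.44, and without MPTP mouse 2 they are -2.38, -1.93 and -1.19.

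The second comparison asked what needling at the acupoints did under MPTP, and it shares the MPTP arrays with the comparison above. Drd1 had 10.16 and 10.41 in the acupoint mice, against 7.93 and 10.68 in the MPTP mice. Both acupoint values lay between those of the MPTP mice, and the difference of the means was 0.98 (SE 0.76, 95% interval -0.81 to 2.78, limma adjusted p = 0.90). Drd2 had 9.92 and 10.44 in the acupoint mice, against 8.15 and 10.54 in the MPTP mice, with a difference of 0.84 (SE 0.67, limma adjusted p = 0.90). Drd3 had 7.67 and 7.10 in the acupoint mice, against 6.40 and 8.03 in the MPTP mice, and differed by 0.17 (SE 0.50). Unlike in Drd2, acupoint mouse 1 was the higher of the pair for Drd3. The differences of Drd4 and Drd5 were 0.08 (SE 0.18) and -0.12 (SE 0.11).

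For these 5 receptors limma called 0 in acupoint against MPTP mice and 0% of all probe sets; 588 probe sets (3.60%), none of them a receptor, had p under 0.05 before adjustment. No receptor had groups that did not overlap, against 27.3% of all probe sets. Without MPTP mouse 1 the differences were -0.39 for Drd1, -0.36 for Drd2 and -0.65 for Drd3. Without MPTP mouse 2 they were 2.36, 2.03 and 0.99, again with a single MPTP array left.

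The third comparison set needling at the hips against MPTP alone. Drd1 had 10.15 and 9.61 in the non-acupoint mice, against 7.93 and 10.68 in the MPTP mice, a difference of 0.58 (SE 0.76, limma adjusted p = 0.88). Drd2 had 9.98 and 9.61 in the non-acupoint mice, against 8.15 and 10.54 in the MPTP mice, a difference of 0.45 (SE 0.67, limma adjusted p = 0.89). For both genes the needled mice lay inside the range of the MPTP mice. Drd3 differed by 0.07 (SE 0.50) and Drd5 by -0.004 (SE 0.11), which turned to 0.03 with each array centred on its median.

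Drd4 was the 1 receptor whose groups did not overlap in this comparison, with 6.22 and 5.98 in the non-acupoint mice, against 6.64 and 6.24 in the MPTP mice. The nearest values were 0.02 apart, and 17.7% of all probe sets had groups apart in the same direction. This share counts only that direction, unlike the 29.3% and 27.3% of the earlier comparisons, which count both. Its difference was -0.34 (SE 0.18, 95% interval -0.76 to 0.08, limma adjusted p = 0.74), which became -0.14 without MPTP mouse 1 and -0.53 without MPTP mouse 2. Limma called 0 receptors and 0% of the probe sets; 1076 probe sets (6.58%), none of them a receptor, had p under 0.05 before adjustment. Without MPTP mouse 2 the differences of Drd1 and Drd2 were 1.95 and 1.65, and without MPTP mouse 1 they were -0.79 and -0.74.

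The fourth comparison set needling at the acupoints against needling at the hips, and uses neither the MPTP nor the control arrays for its means. Its SEs, intervals and p-values use the spread pooled over all 4 groups, the MPTP pair included. For Drd1 the SD was 1.94 in MPTP mice, against 0.18 in acupoint and 0.38 in non-acupoint mice. Drd1 had 10.16 and 10.41 in the acupoint mice, against 10.15 and 9.61 in the non-acupoint mice. The groups did not overlap, by a margin of 0.01, and the difference was 0.41 (SE 0.76, 95% interval -1.39 to 2.20, limma adjusted p = 0.96). Drd4 had 6.43 and 6.61 in the acupoint mice, against 6.22 and 5.98 in the non-acupoint mice, also without overlap. Its difference was 0.42 (SE 0.18, 95% interval -0.0004 to 0.84), or 134% of the non-acupoint signal, with an unadjusted limma p of 0.0502 and an adjusted p of 0.96.

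Thus 2 of 5 receptors were higher without overlap in acupoint mice, as were 13.9% of all probe sets. This share counts only the direction of these receptors. The shares given where no receptor's groups were apart count both directions, so the 2 kinds of share cannot be compared. Limma called 0 receptors and 0% of the probe sets, where 526 (3.22%) had p under 0.05 before adjustment. Drd2 had 9.92 and 10.44 in the acupoint mice, against 9.98 and 9.61 in the non-acupoint mice, a difference of 0.38 (SE 0.67) with overlap. Drd3 differed by 0.10 (SE 0.50) and Drd5 by -0.11 (SE 0.11). The difference of Drd4 lay between 0.29 and 0.54 whichever array was left out, and at 0.45 and 0.47 with the thalamus or the projection neuron marker mean as a covariate. That of Drd1 lay between 0.13 and 0.68 with an array left out, and at -0.03 and -0.12 with these covariates. As the groups of both genes did not overlap here, leaving out an array could not turn either sign. For Drd4 the 2 controls differed by 0.29, more than in 91.9% of tested probe sets.

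**Figure D3:**
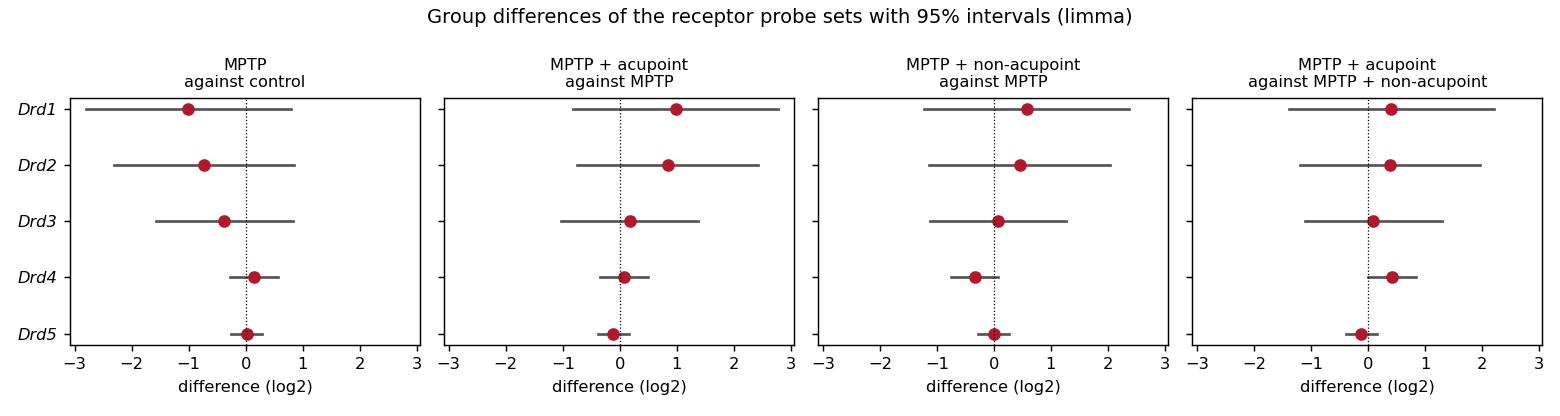
Differences of group means (log2, points, horizontal axis) of the 5 receptors (rows) in the 4 comparisons, with 95% intervals from limma (lines). Every interval includes 0; that of Drd4 in acupoint against non-acupoint mice begins at -0.0004, and the intervals of Drd1 are the widest in each panel.

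The needled groups were also set against the 2 control arrays that the first comparison used. The SEs again rest on the spread pooled over all 4 groups, so those of Drd1 and Drd2 carry the wide MPTP pair. In acupoint mice the mean of Drd1 was 10.29 ± 0.18, against 10.31 ± 0.02 in controls (SD, n = 2 each), a difference of -0.02 (SE 0.76) that became 0.02 with each array centred on its median. Drd2 differed by 0.11 (SE 0.67), Drd3 by -0.20 (SE 0.50), Drd4 by 0.22 (SE 0.18) and Drd5 by -0.10 (SE 0.11). Limma called 0 receptors and 0% of the probe sets, where 312 (1.91%) had p under 0.05 before adjustment, and no receptor had groups apart, against 33.9% of all probe sets.

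In non-acupoint mice Drd1 was 10.15 and 9.61, against 10.29 and 10.32 in controls. Drd2 was 9.98 and 9.61 in non-acupoint mice, against 10.11 and 10.04 in controls. Both genes were lower without overlap, 2 of 5 receptors, where 22.6% of all probe sets were lower without overlap. This share counts only that direction, unlike the 33.9% above, which counts both. Their differences were -0.43 (SE 0.76, limma adjusted p = 0.91) and -0.28 (SE 0.67, limma adjusted p = 0.93), or 74.4% and 82.4% of the control level. Without non-acupoint mouse 2 they were -0.16 and -0.10, and without non-acupoint mouse 1 they were -0.70 and -0.46. Limma called 0 receptors and 0% of the probe sets, where 988 (6.05%) had p under 0.05 before adjustment. Fitted beside the mean of the thalamus markers, the differences were 0.20 and 0.28, and beside that of the projection neuron markers 0.08 and 0.17.

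Over the 3 MPTP-treated groups together, the differences from the controls were -0.49 (SE 0.62) for Drd1, -0.30 (SE 0.55) for Drd2, -0.29 (SE 0.41) for Drd3, 0.05 (SE 0.14) for Drd4 and -0.03 (SE 0.09) for Drd5, the last at 0.01 with each array centred on its median. The difference of Drd1 was -0.03 without MPTP mouse 1 and -0.94 without MPTP mouse 2. Limma called 0 receptors and 0% of the probe sets, where 552 (3.38%) had p under 0.05 before adjustment, and no receptor had groups apart, against 7.28% of all probe sets. A moderated F-test over the 4 groups gave unadjusted p-values between 0.18 (Drd4) and 0.89 (Drd3) with limma, and called 0 receptors and 0% of the probe sets.

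Placed in order of their group means, Drd1 and Drd2 both ran from MPTP (9.30 and 9.34) through non-acupoint mice (9.88 and 9.80), and the remaining groups were within 0.11 of each other: 10.29 in acupoint mice and 10.31 in controls for Drd1, and 10.18 in acupoint mice and 10.07 in controls for Drd2. Drd3 ran from 7.22 in MPTP mice through 7.29 in non-acupoint and 7.39 in acupoint mice to 7.59 in controls. For Drd4 the means were 6.52 in acupoint mice, 6.44 in MPTP mice, 6.10 in non-acupoint mice and 6.30 in controls, so that the controls stood between the non-acupoint and the MPTP mice. Drd5 stood between 6.81 in acupoint mice and 6.92 in MPTP mice. No pair of neighbours in any of these orders differed beyond the test's threshold.

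Among themselves, Drd1 and Drd2 followed nearly the same course over the arrays. Their Pearson correlation over the 8 arrays was 0.990, and 0.933 over the 7 arrays without MPTP mouse 1. That of Drd3 with Drd1 was 0.869, and 0.694 without that mouse. Drd4 stood at -0.328 with Drd1, and at 0.545 without MPTP mouse 1, and Drd5 at 0.170 and 0.133. These values describe 8 arrays whose tissue markers differed, and 5.11% of all tested probe sets exceeded 0.9 with Drd1.

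The balance of the pair, Drd2 minus Drd1 on the log2 scale, was 0.22 and -0.14 in the MPTP mice, against -0.18 and -0.29 in the controls. In the acupoint mice it was -0.24 and 0.03, and in the non-acupoint mice -0.17 and 0.003. Such a difference within an array shows unequal movement of the 2 probe sets, and its zero has no meaning, since their brightness differs by design. Both MPTP values were above both controls, by 0.27 on average, with a two-sided exact permutation p of 0.333, the smallest that 2 against 2 arrays allow. The nearest values were -0.14 in MPTP mouse 2 and -0.18 in control mouse 1. Without MPTP mouse 1 the difference was 0.095, and without MPTP mouse 2 it was 0.45. All 6 MPTP-treated arrays had a mean of -0.05, against -0.23 in the controls (two-sided exact permutation p = 0.143, where 0.0714 is the smallest possible), and acupoint mouse 1 lay between the controls.

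The probe sets most like each receptor over the 8 arrays were listed by Pearson correlation, for the receptors that spanned at least 1 on the log2 scale. For Drd1 the 5 highest were Rin1, a Ras and Rab interactor (0.998), the coactivator Mrtfb (0.998), the potassium channel subunit Kcnv1 (0.998), the chondroitin sulfotransferase Chst15 (0.998) and the orphan receptor Gpr52 (0.998). All 5 stayed at 0.980 or above over the 7 arrays without MPTP mouse 1, which are among the 8 used to choose them. For Drd2 they were Arhgap10 (0.999), the exchange factor Ngef (0.998), the phosphodiesterase Pde10a (0.997), the copine Cpne5 (0.997) and Kctd1 (0.997), with at least 0.981 over the 7 arrays. Drd2 ranked 66 in likeness to Drd1, and Drd1 ranked 63 in likeness to Drd2. For Drd3 the highest were the RNA-binding protein Hnrnpll (0.975), Fem1a (0.975), Sde2 (0.971), Zfp516 (0.970) and Pttg1ip (0.963), none of them among the first 5 of Drd1 or Drd2. Of all tested probe sets, 4.82% exceeded 0.9 with Drd2 and 0.90% with Drd3 over the 8 arrays.

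The receptors were then set beside the shared projection neuron markers in each array. Relative to the mean of the controls, Drd1 was -2.38 and Drd2 -1.93 in MPTP mouse 1, where these markers averaged -1.88. In non-acupoint mouse 2, Drd1 was -0.70 and Drd2 -0.46, where the markers averaged -0.61. In MPTP mouse 2, Drd1 was 0.37 and Drd2 0.46, where they averaged 0.29. Once the marker mean was subtracted, Drd2 stayed between -0.05 and 0.17 of the controls in the 6 MPTP-treated arrays, while Drd1 lay between -0.14 and 0.07 in 5 of them and at -0.50 in MPTP mouse 1.

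Drd3 followed the markers less closely. It was -1.19 in MPTP mouse 1, and -0.49 in acupoint mouse 2, where the projection neuron markers averaged 0.25. Drd4 and Drd5 were 0.34 and -0.05 in MPTP mouse 1, so neither signal shared the low value of the neuron markers there. Without a call of detection, these values describe the signal and not the RNA of either gene. With the projection neuron marker mean as a covariate, which leaves 3 residual degrees of freedom, the MPTP minus control differences were -0.02 for Drd1, 0.14 for Drd2, 0.18 for Drd3, 0.04 for Drd4 and 0.05 for Drd5, with no call. With the thalamus marker mean they were -0.27, -0.09, 0.06, 0.08 and 0.05 in the same order, also with no call.

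**Figure D4:**
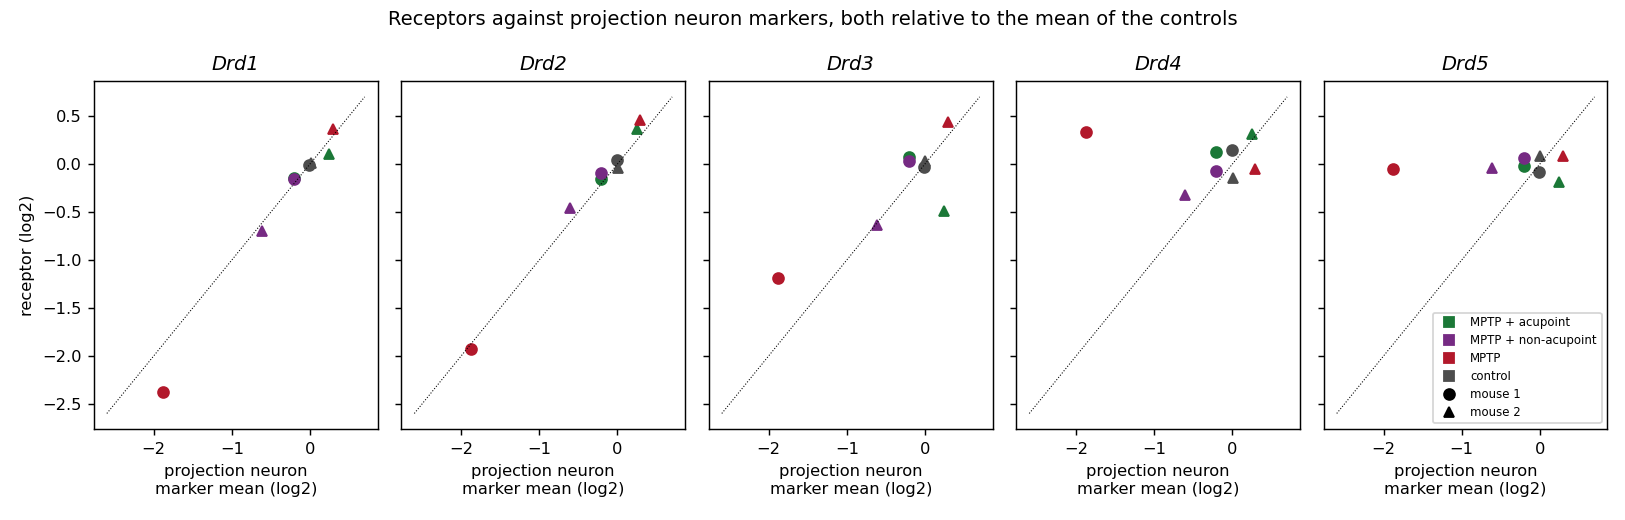
Each receptor (log2 relative to the mean of the controls, vertical axis) against the mean of 8 shared projection neuron markers (same scale, horizontal axis) in the 8 arrays; colours are groups, shapes are mice, and the dotted line marks equal values. Drd1 and Drd2 lie near the line down to MPTP mouse 1 (-2.38 and -1.93, at a marker mean of -1.88), while Drd4 and Drd5 stay between -0.32 and 0.34 throughout.

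Genes that act downstream of the receptors were counted by role for MPTP against control. Of the G protein subunits, 9 of 10 listed genes were measured, 0 passed the limma threshold, 2 were higher and 7 lower, and their median difference was -0.11, against 0.01 over all probe sets. Gng7, the gamma subunit that pairs with the olfactory-type stimulatory G protein of the striatum, had 9.36 and 11.63 in the MPTP mice, against 11.42 and 11.31 in the controls. Gnal, the alpha subunit of that protein, had 9.46 and 10.68 in the MPTP mice, against 10.36 and 10.38 in the controls. Both repeated the arrangement of Drd1, with MPTP mouse 1 far below and MPTP mouse 2 above the controls. Gnai1, an inhibitory alpha subunit, had 10.85 in both MPTP mice, against 11.07 and 11.08 in the controls, a difference of -0.22 (SE 0.10, limma adjusted p = 0.93).

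Among cyclases, protein kinase A subunits and their targets, 10 of 11 listed genes were measured, 0 passed, 1 was higher and 9 were lower, with a median of -0.24. Ppp1r1b, which encodes DARPP-32, the phosphatase inhibitor that D1 signalling switches on, had 8.97 and 11.65 in the MPTP mice, against 11.42 and 11.32 in the controls. Prkar2b, a regulatory subunit of protein kinase A, had 8.63 and 10.22 in the MPTP mice, against 10.16 and 10.22 in the controls. The exception was Adcy1, a calmodulin-stimulated cyclase, with 10.06 and 8.86 in the MPTP mice, against 8.74 and 8.80 in the controls.

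All 6 phosphodiesterases, enzymes that break down cyclic nucleotides, were measured, 0 passed, 1 was higher and 5 were lower, with a median of -0.47. Pde2a (-0.90, SE 0.63), Pde10a (-0.80, SE 0.67) and Pde1b (-0.56, SE 0.45) had the largest differences. In MPTP mouse 1 they stood at 9.10, 9.15 and 10.41, and in MPTP mouse 2 at 11.37, 11.51 and 12.03, above both controls for each gene.

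Of 14 measured RGS proteins, receptor kinases, arrestins and receptor-binding proteins out of 15, 0 passed, 7 were higher and 7 lower, and their median of 0.03 was close to that of all probe sets. Rgs9, which speeds the shutdown of D2 signalling in the striatum, had 8.71 and 11.44 in the MPTP mice, against 11.11 and 11.06 in the controls. The regulators Rgs2 and Rgs14 differed by -0.71 (SE 0.42) and -0.48 (SE 0.45). The members of this list with the largest differences were again low in MPTP mouse 1, at 8.38 for Rgs2 and 6.82 for Rgs14.

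Other G protein-coupled receptors of the same neurons were measured for 12 of 15 listed genes, with 0 that passed, 3 higher, 9 lower and a median of -0.48. Gpr6, a receptor of indirect-pathway neurons, had 7.65 and 10.58 in the MPTP mice, against 10.20 and 10.12 in the controls. Gpr52, another receptor of the indirect pathway, had 8.63 and 11.29 in the MPTP mice, against 10.96 and 11.04 in the controls. For Cnr1, the cannabinoid receptor of neurons, the values were 6.40 and 7.97 in the MPTP mice, against 7.76 and 7.90 in the controls. All 12 were above the control mean in MPTP mouse 2, and 9 of the 12 were below it in MPTP mouse 1.

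Genes of dopamine supply, whose products make, carry and break down the transmitter, were tested for 10 of 12 listed genes, with 0 that passed, 8 higher, 2 lower and a median of 0.15. Th, which encodes the enzyme for the slowest step in making dopamine, had 6.66 and 7.10 in the MPTP mice, against 6.73 and 6.80 in the controls. It is named here for its role, after its values were seen, and its difference of 0.11 (SE 0.27) was smaller than those of the dehydrogenase Aldh1a1 (0.88, SE 0.58), the dopamine transporter Slc6a3 (0.60, SE 0.37) and the vesicular transporter Slc18a2 (-0.33, SE 0.25). Ddc, which makes dopamine from its precursor, was the 1 gene of the list with p under 0.05 before adjustment (0.25, SE 0.10, limma adjusted p = 0.93).

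The direction of most of these lists rested on MPTP mouse 1. Without it, the median MPTP minus control difference was 0.28 for the other receptors, with 12 of 12 higher, 0.24 for phosphodiesterases, with 6 of 6 higher, and 0.09 for cyclases and protein kinase A. It was 0.07 for RGS proteins, kinases and arrestins, -0.03 for G protein subunits and -0.09 for dopamine supply. In acupoint against MPTP mice, the medians of the 5 receptor-related lists ran from -0.01 for RGS proteins, kinases and arrestins to 0.54 for the other receptors, against -0.04 over all probe sets, with 0 genes called. In non-acupoint against MPTP mice they ran from -0.06 to 0.21, against -0.01 over all probe sets, again with 0 called. Without MPTP mouse 1 all 5 medians were below 0, from -0.25 to -0.05 in acupoint against MPTP mice and from -0.59 to -0.02 in non-acupoint against MPTP mice.

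**Figure D5:**
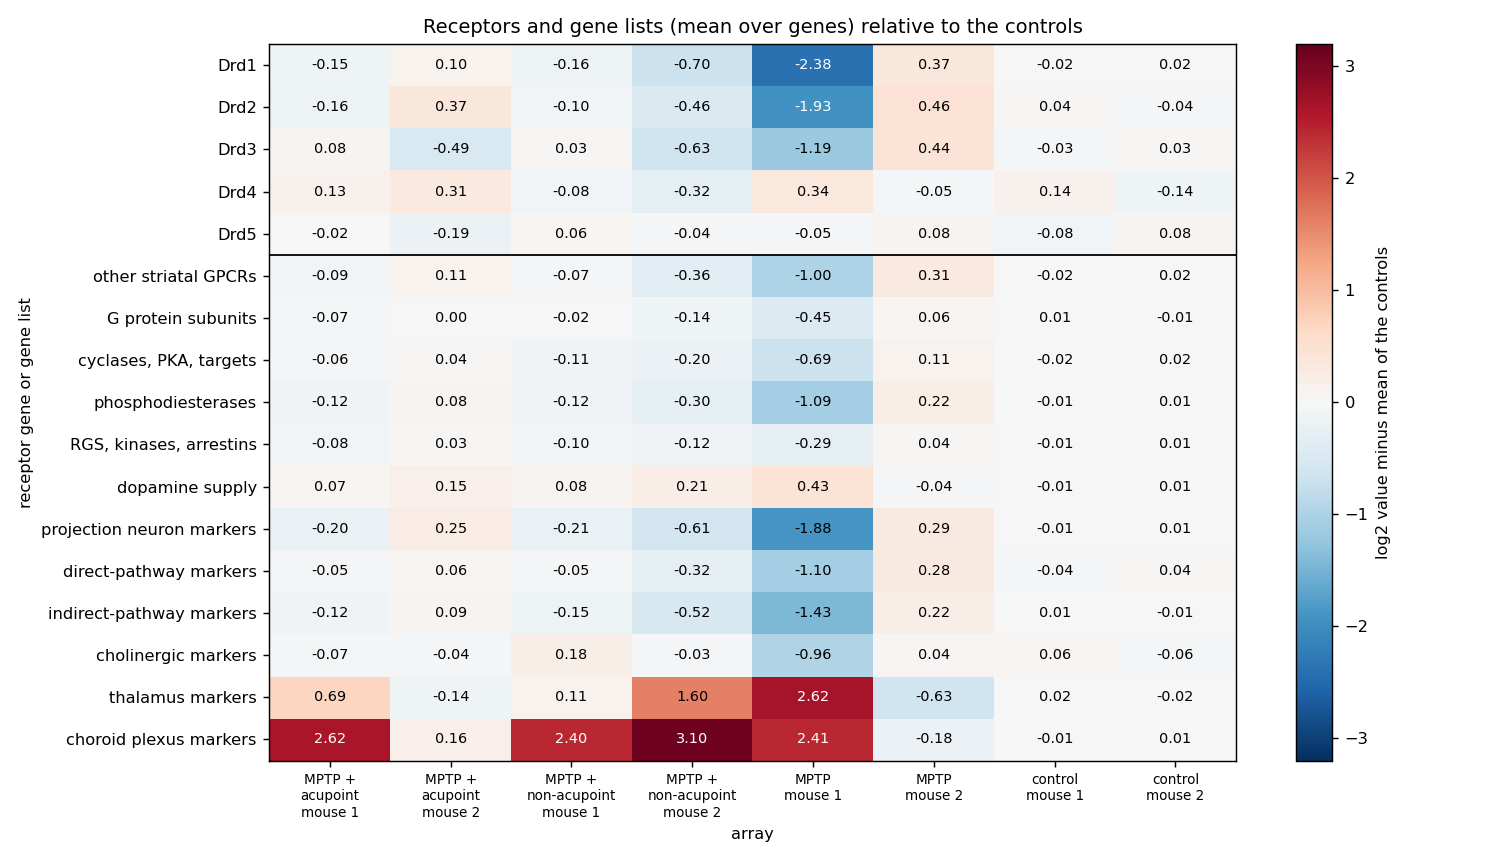
Log2 values relative to the mean of the controls (colour and number) of the 5 receptors and of 12 gene lists (mean over the measured genes of each list, rows) in the 8 arrays (columns). MPTP mouse 1 is lowest for Drd1 (-2.38) and for the projection neuron markers (-1.88), and highest for the thalamus markers.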

How the data were processed

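RNA of striatal tissue was measured on gene arrays, 1 per mouse, from 300 ng of total RNA per the labels' protocols. The software, per the submitters' processing notes, was Affymetrix Expression Console with the RMA method, whose version is not given in the sources used here. This method corrects background, quantile-normalises arrays and summarises probe sets, so a shift shared by most genes would not be seen. The authors' deposited log2 values were used as they stand. The genome build of the array annotation is not given in the sources used here.

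Symbols came from the platform table and matched RefSeq (GRCm38.p6) by gene ID for 21698 of 21789 probe sets. Probe sets with 1 symbol and a mean of at least 5.25, the 25th percentile, were kept (16342 probe sets, 14890 genes). Groups were compared in 1 model over 8 arrays with limma (version 3.58.1, functions lmFit and eBayes) in R 4.3.3 (4 residual and 2.94 prior degrees of freedom), with Benjamini-Hochberg adjustment over all probe sets at 0.05. The computation was tested on simulated data. Lists used the brightest probe set of a gene. The text names all 5 receptors, up to 3 genes of each receptor-related list with the largest MPTP minus control difference, and the 5 genes most correlated with each receptor spanning at least 1. Defining markers such as Penk, and genes of dopamine supply, are named beside this rule; the supply genes were chosen after their values were seen. Alternatives changed filters, shrinkage, scaling, covariates, the block and the arrays used. Members and lists were chosen with earlier results of these data known. The number of arrays limits the precision. Limma p-values rest on 1 estimate of spread per probe set, pooled over the mouse pairs of all 4 groups. This estimate is also shrunk towards a value shared by all probe sets. A wide pair in 1 group thus widens the intervals of every comparison for that gene.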

Additional observations from a re-analysis of the deposited data

How the results depend on the processing

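The receptor results were recomputed under 12 other settings for each of 7 comparisons, then with each array left out. The filter at the 50th percentile removed Drd4. Of 413 receptor differences recomputed under those 12 settings, 386 kept their direction and their side of the threshold, and the 27 that turned sign did not pass before or after. With each array centred on its median, signs turned in non-acupoint against MPTP for Drd5 (0.030) and in acupoint against control for Drd1 (0.018). The sign also turned in all MPTP-treated groups against control for Drd5 (0.0083). With the thalamus markers fitted as a covariate, they turned in MPTP against control for Drd3 (0.056) and in acupoint against MPTP for Drd3 (-0.14). The sign also turned in acupoint against non-acupoint for Drd1 (-0.025) and Drd3 (-0.16) and in acupoint against control for Drd1 (0.18). Further turns were in non-acupoint against control for Drd1 (0.20), Drd2 (0.28) and Drd3 (0.071) and in all MPTP-treated groups against control for Drd1 (0.037), Drd2 (0.16) and Drd3 (0.014). With the projection neuron markers fitted in their place, they turned in MPTP against control for Drd2 (0.14) and Drd3 (0.18) and in acupoint against MPTP for Drd1 (-0.024), Drd2 (-0.054) and Drd3 (-0.40). The sign also turned in non-acupoint against MPTP for Drd3 (-0.20) and in acupoint against non-acupoint for Drd1 (-0.12), Drd2 (-0.085) and Drd3 (-0.20). Further turns were in non-acupoint against control for Drd1 (0.076) and Drd2 (0.17) and in all MPTP-treated groups against control for Drd1 (0.00097) and Drd2 (0.13). These turns are the 27 counted above, and their cause was not tested. A further setting outside the 12, chosen after seeing the data, left out MPTP mouse 1 and non-acupoint mouse 2, and turned 16 more signs. These were in MPTP against control for Drd1 (0.37), Drd2 (0.46), Drd3 (0.44) and Drd4 (-0.055) and in acupoint against MPTP for Drd1 (-0.39), Drd2 (-0.36) and Drd3 (-0.65). The sign also turned in non-acupoint against MPTP for Drd1 (-0.52), Drd2 (-0.56) and Drd3 (-0.41) and in acupoint against non-acupoint for Drd3 (-0.23). Further turns were in non-acupoint against control for Drd3 (0.030) and in all MPTP-treated groups against control for Drd1 (0.063), Drd2 (0.16), Drd3 (0.090) and Drd5 (0.014). Their cause was not tested.

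With each array left out in turn, the receptor differences covered these ranges. In MPTP against control, Drd1 ran from -2.38 to 0.37, Drd2 from -1.93 to 0.46, Drd3 from -1.19 to 0.44, Drd4 from -0.055 to 0.34 and Drd5 from -0.065 to 0.10. In acupoint against MPTP, Drd1 ran from -0.39 to 2.36, Drd2 from -0.36 to 2.03, Drd3 from -0.65 to 0.99, Drd4 from -0.12 to 0.27 and Drd5 from -0.20 to -0.034. In non-acupoint against MPTP, Drd1 ran from -0.79 to 1.95, Drd2 from -0.74 to 1.65, Drd3 from -0.74 to 0.89, Drd4 from -0.53 to -0.14 and Drd5 from -0.068 to 0.060. In acupoint against non-acupoint, Drd1 ran from 0.13 to 0.68, Drd2 from 0.12 to 0.65, Drd3 from -0.23 to 0.43, Drd4 from 0.29 to 0.54 and Drd5 from -0.20 to -0.030. In acupoint against control, Drd1 ran from -0.15 to 0.10, Drd2 from -0.16 to 0.37, Drd3 from -0.49 to 0.077, Drd4 from 0.075 to 0.36 and Drd5 from -0.19 to -0.019. In non-acupoint against control, Drd1 ran from -0.70 to -0.16, Drd2 from -0.46 to -0.10, Drd3 from -0.63 to 0.030, Drd4 from -0.34 to -0.055 and Drd5 from -0.069 to 0.092. In all MPTP-treated groups against control, Drd1 ran from -0.94 to -0.028, Drd2 from -0.70 to 0.10, Drd3 from -0.57 to -0.020, Drd4 from -0.091 to 0.20 and Drd5 from -0.11 to 0.055. Drd1 and Drd2 passed in MPTP against control, acupoint against MPTP and non-acupoint against MPTP only without MPTP mouse 2, so that the count of receptors called, also by the F-test, ran from 0 to 2. The Drd2 minus Drd1 difference between MPTP and control mice ran from 0.095 without MPTP mouse 1 to 0.45 without MPTP mouse 2.

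Counts over all 16342 probe sets were 0 in every comparison as reported. In MPTP against control 1 was called with all probe sets of the table, 2 with the thalamus covariate, 1 with the projection neuron covariate, and 0 to 1607 with an array left out. In non-acupoint against MPTP 5 were called with the thalamus covariate and 0 to 794 with an array left out, and in acupoint against MPTP 0 to 1453 with an array left out. In acupoint against control 1 was called with the arrays of those groups alone and 1 without MPTP mouse 1 and non-acupoint mouse 2. In non-acupoint against control the counts were 1 with all probe sets, 2 with those groups alone and 2 without these mice. For all MPTP-treated groups against control they were 2 with all probe sets, 1 with array weights, 1 with the projection neuron covariate, 2 without these mice and 0 to 70 with an array left out. The F-test gave 1 with all probe sets, 1 without these mice and 0 to 518 with an array left out. The counts of 518 to 1607 all came without MPTP mouse 2, where the remaining MPTP array is assumed to vary like the other groups.

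The deviations of mice with the same number had correlations of either sign between groups (from -0.492 to 0.402 over the 6 pairs of groups). Each group gives only a single difference between its mice, and the arrays differed in their tissue markers. These correlations therefore cannot tell whether the numbers mark a shared batch or pairing, which was not tested. With the replicate number as a block, 0 receptors and 0 probe sets were called in each comparison, and Drd4 in acupoint against non-acupoint mice kept its difference of 0.42 (limma adjusted p = 0.97). The median of the phosphodiesterase list in acupoint against MPTP mice was 0.26 with all probe sets of its genes, against 0.38 with the brightest.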
